A study of Mus musculus with 4 samples.

Results

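The 32 genes described here encode the machinery of the cell cycle: 2 G1 cyclins, 12 genes of DNA replication in S phase and 18 genes of mitosis. They were chosen by name, and every non-control probe whose RefSeq accession belongs to 1 of them was taken, which gave 43 probes for 32 of the 20659 genes named on the array. The samples were total RNA from mouse kidney, collected 2 weeks after the common bile duct was tied off (bile duct ligation, BDL), an operation that dams bile back into the liver, or after a sham operation in which the duct is not tied. There were 2 samples per group, which the series' design text calls biological replicates, and each was hybridised to its own 1-colour Agilent array. The strain, sex and age of the mice were not given in the sources used here. Whether a sample came from 1 mouse or from a pool was not stated either. With 2 arrays on each side a p-value rests on little information about the spread between samples.

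Levels are given as the log2 of the processed signal minus the 75th percentile of the same array, so that a level of 0 is as bright as the 75th percentile of that array and a difference of 1 is a 2-fold difference. Levels of different probes are not compared, because a probe's brightness depends on its sequence. Between 57.7% and 63.1% of all probes were well above background on an array, and 0 spots were saturated. All 8 proximal tubule markers listed were retained (their signal was flagged as well above background on each array of sham, of BDL or of both groups), and Cubn, the receptor that takes filtered protein back up there, had levels of 6.16 and 6.02 in sham and 6.5 and 6.42 in BDL. Of the 8, 2 were higher and 6 lower in BDL, with a median log2 difference of -0.13, and Cubn was the 1 whose groups did not overlap. The tubular injury list was higher in BDL in 10 of 10 genes, against 48.6% of all features, with a median log2 difference of 0.95. It shares Krt20 with the urothelial list and Lcn2 with the neutrophil list, both of which are described below. The size of the tubular injury difference varied between the BDL samples, with BDL 2 above BDL 1 in 0 of 10 genes. The median deviation from each gene's own mean was -0.50 and -0.47 in sham 1 and 2 and 0.88 and 0.15 in BDL 1 and 2.

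Cells leave rest when D-type and then E-type cyclins, with their kinases, inactivate the retinoblastoma proteins and free the E2F transcription factors, which switch on the genes of DNA replication. Later in the cycle a second wave of transcription, driven by the MuvB complex with B-MYB and FOXM1, produces the kinases, cyclins and spindle proteins of mitosis. Most cells of the adult kidney are at rest, and tubule cells can re-enter the cycle after injury. In bulk tissue, fewer cells in cycle and less RNA per cycling cell cannot be told apart.

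The 2 waves are written in different words in the promoters, and 6 stretches are printed here because these words differ in frequency between the S phase and the mitotic members, which the arrays did not decide. RefSeq promoter windows of 300 bases (250 before to 50 after the annotated start, build GRCm38.p6) were matched for 25 of the 32 members, 10 of S phase, 14 of mitosis and Ccne1. Entries were not found for Ccnd1, Mcm4, Gmnn, Ccna2, Aurkb, Foxm1 and Tpx2. The first 3 windows belong to mitotic members, on the minus strand at chr10:69352863-69353162 (Cdk1), chr9:70421505-70421804 (Ccnb2) and chr4:118437294-118437593 (Cdc20). Capitals mark TTTGAA, a common form of the cell cycle homology region (CHR) that MuvB recognises, and the CCAAT box, read on both strands, so that ATTGG is a CCAAT on the other strand.
Cdk1: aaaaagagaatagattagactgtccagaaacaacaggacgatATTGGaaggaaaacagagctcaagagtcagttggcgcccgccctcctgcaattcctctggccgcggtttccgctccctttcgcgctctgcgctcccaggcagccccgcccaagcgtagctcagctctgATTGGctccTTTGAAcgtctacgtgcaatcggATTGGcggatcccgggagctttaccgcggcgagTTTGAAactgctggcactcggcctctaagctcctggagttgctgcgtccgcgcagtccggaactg
Ccnb2: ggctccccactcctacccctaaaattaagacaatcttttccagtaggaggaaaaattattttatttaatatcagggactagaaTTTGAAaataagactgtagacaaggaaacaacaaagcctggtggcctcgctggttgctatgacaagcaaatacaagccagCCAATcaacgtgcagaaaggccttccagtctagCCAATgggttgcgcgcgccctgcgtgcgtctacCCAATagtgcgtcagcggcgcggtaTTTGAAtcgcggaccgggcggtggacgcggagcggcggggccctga
Cdc20: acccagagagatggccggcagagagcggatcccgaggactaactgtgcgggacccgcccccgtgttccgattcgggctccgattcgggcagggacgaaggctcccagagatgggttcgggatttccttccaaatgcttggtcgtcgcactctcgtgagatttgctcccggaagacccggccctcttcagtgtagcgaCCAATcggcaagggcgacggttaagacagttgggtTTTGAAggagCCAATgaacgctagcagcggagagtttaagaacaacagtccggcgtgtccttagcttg

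The next 3 windows belong to S phase members, on the minus strand at chr1:20820263-20820562 (Mcm3), the plus strand at chr8:75109259-75109558 (Mcm5) and the minus strand at chr1:128359656-128359955 (Mcm6). Here capitals mark 5 words of the E2F site on either strand: TTTGGCGC, TTTCCCGC, TTTCGCGC, TTCCCGCC and TTTGGCGG. These words overlap one another, so a run of capitals longer than 8 letters holds more than 1 match.
Mcm3: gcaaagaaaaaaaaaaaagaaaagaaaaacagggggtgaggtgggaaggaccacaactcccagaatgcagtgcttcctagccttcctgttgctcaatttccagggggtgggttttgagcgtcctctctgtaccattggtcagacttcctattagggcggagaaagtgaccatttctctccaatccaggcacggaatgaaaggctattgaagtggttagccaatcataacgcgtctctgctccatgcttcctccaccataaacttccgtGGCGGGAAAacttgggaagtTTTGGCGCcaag
Mcm5: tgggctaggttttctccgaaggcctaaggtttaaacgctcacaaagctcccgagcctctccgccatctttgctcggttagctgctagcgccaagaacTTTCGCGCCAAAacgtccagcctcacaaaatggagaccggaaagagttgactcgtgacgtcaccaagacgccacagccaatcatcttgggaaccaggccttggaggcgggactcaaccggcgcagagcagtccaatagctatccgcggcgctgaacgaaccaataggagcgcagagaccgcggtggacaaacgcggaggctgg
Mcm6: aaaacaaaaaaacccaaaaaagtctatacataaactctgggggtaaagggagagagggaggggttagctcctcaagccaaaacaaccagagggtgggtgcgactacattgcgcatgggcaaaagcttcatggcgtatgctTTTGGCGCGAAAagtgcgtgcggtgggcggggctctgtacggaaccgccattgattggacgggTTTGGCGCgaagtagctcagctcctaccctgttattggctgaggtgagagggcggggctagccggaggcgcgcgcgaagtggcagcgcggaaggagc

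TTTGAA was found on either strand in 11 of the 14 mitotic windows (Aurka, Bub1b, Ccnb2, Cdc20, Cdk1, Cenpa, Kif11, Mki67, Plk1, Top2a and Ube2c) and in 1 of the 10 S phase windows, that of Mcm2. Of all 32851 windows of the same length, 17.9% hold it, and of the 21262 windows of protein-coding genes 16.0% do. In 10 of those 11 mitotic windows the nearest match lay within 60 bases of the annotated start. The share of all windows with a match at this distance was not counted. With the other common form, TTTAAA, which is its own reverse complement, added, 13 of 14 mitotic and 3 of 10 S phase windows matched, against 27.6% of all windows. At least 1 E2F word was found in 6 of 10 S phase windows (Cdt1, Mcm3, Mcm5, Mcm6, Mcm7 and Rrm1) and in 1 of 14 mitotic windows, that of Cdk1, against 3.95% of all windows. CCAAT did not separate the roles in this way: 13 of 14 mitotic and 8 of 10 S phase windows held it, against 37.4% of all windows. A match describes letters in a window and is not a measured binding site, and a window without a match says nothing of the factor.

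The main comparison asked whether cell cycle genes differ between kidneys after BDL and after the sham operation. Of the 32 members, 27 were retained, and each of these 27 was well above background on all 4 arrays. Over these 27, 0 passed limma's test at an adjusted p under 0.05, as did 0% of the 24043 features tested. At an unadjusted p under 0.05 there was 1 member, Ccne1, against 5.62% of all features. The median log2 difference, BDL minus sham, was 0.07 over the 27 members, with 17 higher and 10 lower in BDL, beside a median of -0.01 over all features and 48.6% of features higher in BDL. The BDL and sham arrays did not overlap in 8 members, 4 in each direction, against 36.6% of all features. The standard errors of the log2 differences ran from 0.19 to 0.59 with a median of 0.31. The widest 95% interval, that of Tpx2, ran from -1.49 to 1.66, and a missed threshold does not show equal levels.

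**Figure D1:**
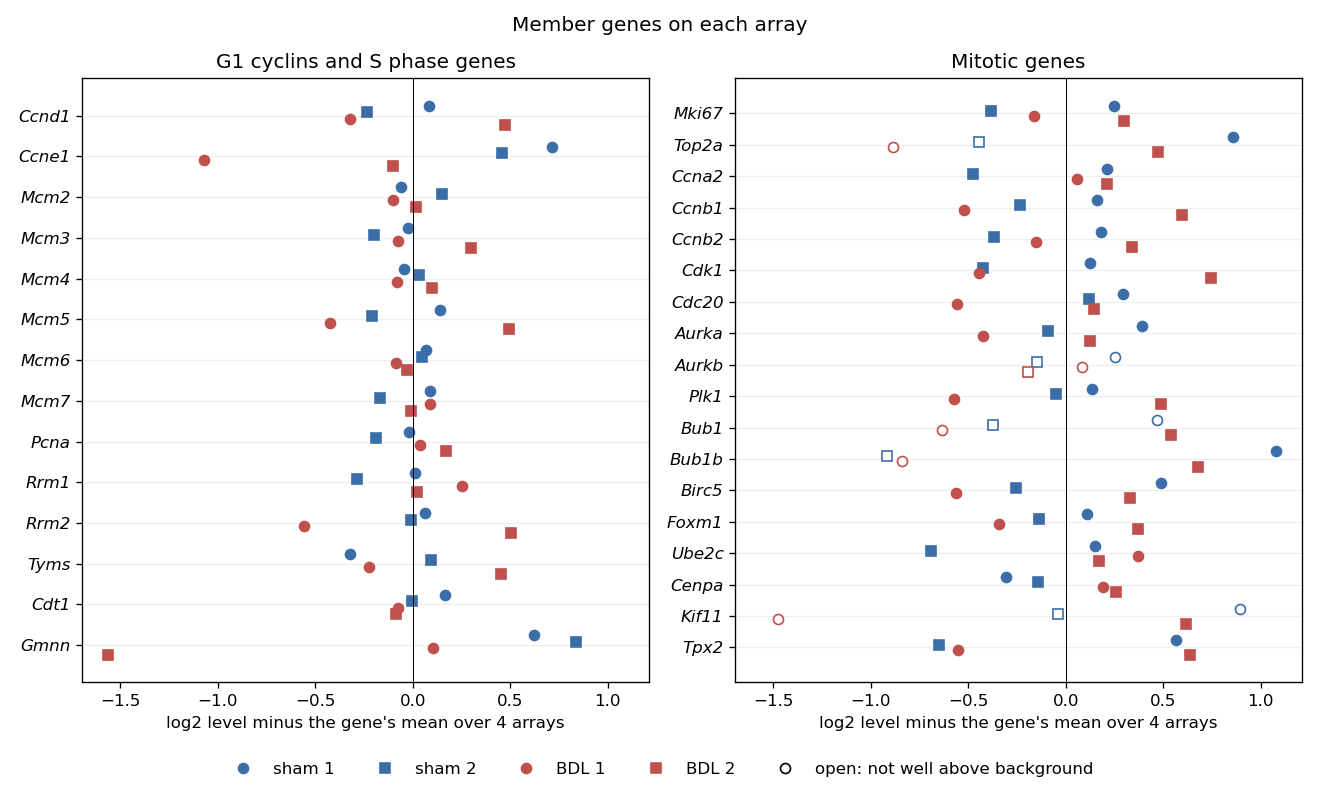
Log2 level of each member gene minus that gene's mean over the 4 arrays (horizontal axis), 1 row per gene, with blue for sham and red for BDL, circles for replicate 1 and squares for replicate 2, and open symbols where the probe was not well above background. Most S phase genes lie close to 0, with Gmnn and the BDL samples of Rrm2, Mcm5 and Tyms farther out, whereas most mitotic genes have sham 1 and BDL 2 on the right and sham 2 and BDL 1 on the left.

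Of the 2 G1 cyclins, Ccne1, cyclin E1, the partner of CDK2 at the entry to S phase, had levels of -1.12 and -1.38 in sham and -2.91 and -1.94 in BDL. Both BDL samples lay below both sham samples, and the 2 BDL samples were 1.96-fold apart. The log2 difference was -1.17 (SE 0.38, 95% interval -2.18 to -0.16, n = 2 per group), which is 2.25-fold lower in BDL, with a limma adjusted p of 0.862. It was the smallest adjusted p among the members. Without BDL 1 the difference was -0.69 and without BDL 2 it was -1.66, so its size rests on which BDL sample is used. A second Ccne1 probe was not distinguished from background. Ccnd1, cyclin D1, the partner of CDK4 and CDK6 that responds to growth signals, had levels of 5.13 and 4.82 in sham and 4.73 and 5.52 in BDL, the BDL samples lying on both sides of the sham samples. Its log2 difference was 0.15 (SE 0.34), smaller than the spread between replicates.

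The S phase members other than Gmnn differed little between the groups. The 12 log2 differences had a median of 0.04, with 7 higher and 5 lower in BDL, and all but that of Gmnn lay between -0.16 and 0.28. The MCM2 to MCM7 proteins form the ring-shaped helicase that is loaded on origins in G1 and unwinds DNA in S phase. Mcm6 had levels of 3.38 and 3.36 in sham and 3.23 and 3.28 in BDL, and Mcm4 had 0.96 and 1.04 in sham and 0.93 and 1.1 in BDL. Mcm2 had levels of -0.59 and -0.38 in sham and -0.63 and -0.52 in BDL. The samples of Mcm2 and Mcm4 overlapped between groups, and those of Mcm6 did not, at a log2 difference of -0.11 (SE 0.19).

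Mcm7 had levels of 2.44 and 2.18 in sham and 2.44 and 2.34 in BDL, and Mcm3 had -0.83 and -1.0 in sham and -0.88 and -0.51 in BDL. Mcm5 was the most variable subunit, with levels of -0.48 and -0.83 in sham and -1.04 and -0.12 in BDL. Its 2 BDL samples were 1.89-fold apart and enclosed both sham samples. The log2 differences were 0.08 (SE 0.21) for Mcm7, 0.22 (SE 0.23) for Mcm3 and 0.07 (SE 0.37) for Mcm5.

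Pcna encodes the sliding clamp that holds DNA polymerase on its template, and Rrm1 and Rrm2 are the large and small subunits of ribonucleotide reductase, which makes deoxyribonucleotides. Pcna had levels of 3.21 and 3.04 in sham and 3.26 and 3.40 in BDL, a log2 difference of 0.21 (SE 0.20), and Rrm1 had 0.86 and 0.56 in sham and 1.11 and 0.88 in BDL, a difference of 0.28 (SE 0.22). In both genes the BDL samples lay above the sham samples, as they did in 17.4% of all features. Rrm2, the subunit whose level follows the cell cycle, had 0.70 and 0.64 in sham and 0.09 and 1.15 in BDL. The sham samples were nearly equal and the BDL samples were 2.09-fold apart, 1 on each side of them. Tyms, thymidylate synthase, had levels of -2.19 and -1.77 in sham and -2.10 and -1.42 in BDL, a log2 difference of 0.23 (SE 0.32).

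Cdt1 loads the MCM ring on origins, and geminin, the product of Gmnn, binds CDT1 and blocks a second loading within the same cycle. Cdt1 had levels of 0.91 and 0.74 in sham and 0.67 and 0.66 in BDL, a log2 difference of -0.16 (SE 0.19). Gmnn had levels of -0.44 and -0.23 in sham and -0.96 and -2.63 in BDL. Both BDL samples lay below the sham samples in both genes, as in 19.2% of all features. For Gmnn the log2 difference was -1.46 (SE 0.59, 95% interval -3.01 to 0.09), which is 2.75-fold lower in BDL, with a limma adjusted p of 0.872. The difference between the 2 BDL samples, 1.67 on the log2 scale, was larger than that between the group means. Without BDL 2 the log2 difference was -0.63 and without BDL 1 it was -2.29. Ccne1 and Gmnn were the 2 members whose group means were at least 2-fold apart, as in 4.65% of all features.

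**Figure D2:**
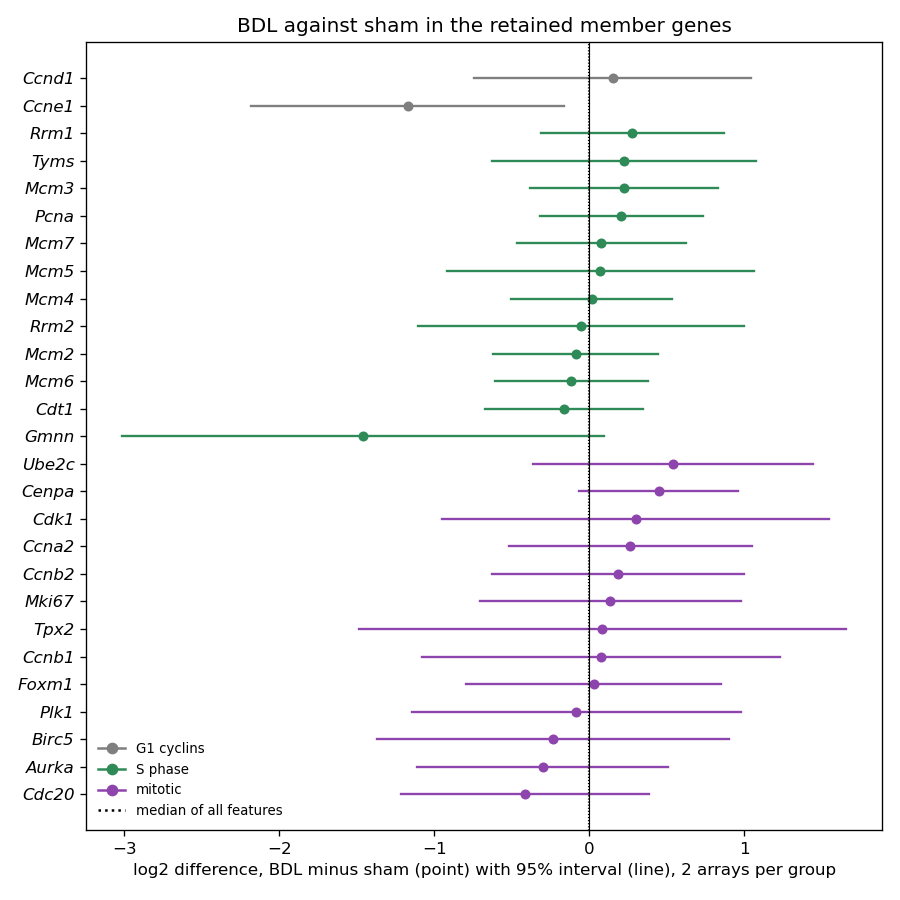
Log2 difference, BDL minus sham (horizontal axis), for the 27 retained member genes, 1 row per gene sorted within role, with points for the limma estimate and lines for its 95% interval from 2 arrays per group. Ccne1 at -1.17 and Gmnn at -1.46 lie far to the left, and the interval of Ccne1 is the only member interval that leaves out 0 before adjustment for the number of features.

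Of the 18 mitotic members, 13 were retained. Their median log2 difference was 0.09, with 9 higher and 4 lower in BDL, and the groups did not overlap in 2 of them, both higher in BDL, against 17.4% of all features in that direction and 36.6% in either. Cenpa, the histone H3 variant that marks centromeres, had levels of -3.27 and -3.11 in sham and -2.77 and -2.71 in BDL, a log2 difference of 0.45 (SE 0.19, 95% interval -0.07 to 0.96) with a limma adjusted p of 0.872, and 0.24 with normexp. Ube2c, the ubiquitin-conjugating enzyme of the anaphase-promoting complex, had -1.0 and -1.84 in sham and -0.78 and -0.98 in BDL, a log2 difference of 0.54 (SE 0.34). For Ube2c the 2 sham samples were 1.79-fold apart, further than the 1.46-fold between group means. By a second retained Ube2c probe the groups overlapped, with levels of -1.84 and -2.64 in sham and -1.39 and -1.94 in BDL.

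The cyclins and kinase of mitotic entry had overlapping groups. Cdk1, the kinase that drives cells into mitosis, had levels of -3.55 and -4.10 in sham and -4.12 and -2.93 in BDL. Its partners cyclin B1 and B2 followed the same order of samples in part: Ccnb1 had -3.01 and -3.41 in sham and -3.69 and -2.57 in BDL, and Ccnb2 had -0.41 and -0.96 in sham and -0.75 and -0.25 in BDL. Ccna2, cyclin A2, which acts in S phase and at mitotic entry, had -1.58 and -2.27 in sham and -1.74 and -1.58 in BDL. For Cdk1, Ccnb1 and Ccnb2, BDL 2 was the highest sample, with sham 1 next. The log2 differences between groups were 0.30 (SE 0.47) for Cdk1, 0.07 (SE 0.44) for Ccnb1, 0.19 (SE 0.31) for Ccnb2 and 0.27 (SE 0.30) for Ccna2.

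Plk1, Aurka and Foxm1 encode the polo-like kinase, the centrosomal Aurora kinase and the forkhead factor of the mitotic wave. Plk1 had levels of -1.37 and -1.55 in sham and -2.08 and -1.02 in BDL, a log2 difference of -0.08 (SE 0.40). Aurka had -1.82 and -2.31 in sham and -2.64 and -2.09 in BDL, a difference of -0.30 (SE 0.31). Foxm1 had -2.51 and -2.76 in sham and -2.96 and -2.25 in BDL, a difference of 0.03 (SE 0.31). BDL 1 was the lowest sample for each of these 3 genes.

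Cdc20 activates the anaphase-promoting complex, Birc5 is survivin of the chromosomal passenger complex, Tpx2 activates Aurora A on the spindle, and Mki67 encodes Ki-67, the protein stained in tissue to mark proliferating cells. Mki67 had levels of -0.51 and -1.14 in sham and -0.92 and -0.46 in BDL, a log2 difference of 0.13 (SE 0.32). Birc5 had 0.40 and -0.34 in sham and -0.65 and 0.24 in BDL, a difference of -0.23 (SE 0.43). Tpx2 had -3.17 and -4.39 in sham and -4.29 and -3.10 in BDL, a difference of 0.09 (SE 0.59). In these 3 genes sham 1 and BDL 2 were the 2 high samples and sham 2 and BDL 1 the 2 low samples, which leaves the group means close together. Cdc20 had -0.08 and -0.26 in sham and -0.93 and -0.23 in BDL, a difference of -0.41 (SE 0.30), with BDL 1 alone set apart from the others.

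The other 5 mitotic members, Top2a, Aurkb, Bub1, Bub1b and Kif11, were not well above background on both arrays of either group and were not tested. They encode topoisomerase II alpha, Aurora B, a pair of spindle checkpoint proteins and the kinesin Eg5. The Top2a probe was well above background on sham 1 and BDL 2 (levels of -3.62 and -4.01) and not on sham 2 and BDL 1 (-4.92 and -5.37). The Bub1b probe was well above background on the same 2 arrays, with levels of -4.08 on sham 1, -6.08 on sham 2, -6.0 on BDL 1 and -4.48 on BDL 2. Bub1 and Kif11 were well above background on BDL 2 alone, and Aurkb was so on 0 of 4 arrays. No fold between groups is given for these genes.

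Most mitotic members thus shared an order of the 2 samples within each group, a pattern noticed after the values were seen. Differences between 2 single samples spread wider than those between 2 means, so the 2 kinds are not compared in size. Sham 1 was above sham 2 in 12 of the 13 retained mitotic members, against 55.9% of all features, with a median log2 difference of 0.55, or 1.46-fold. BDL 2 was above BDL 1 in 12 of 13, against 50.3% of all features, with a median of 0.70, or 1.63-fold. The 2 sham samples were at least 2-fold apart in 1 of the 13, Tpx2, against 9.93% of all features, and the 2 BDL samples in 4 (Ccnb1, Cdk1, Plk1 and Tpx2), against 5.7%. Both orders held in 11 of the 13, against 26.6% of all features. Cenpa and Ube2c were the exceptions. Among the 9374 features within the same range of mean level, the median differences were -0.03 between the sham samples and 0.02 between the BDL samples. Taken without sign, the medians there were 0.37 in sham and 0.26 in BDL, against 0.55 and 0.70 in the mitotic members. Of these 9374 features, 1257 were at least 2-fold apart between the sham samples and 689 between the BDL samples. With all 18 mitotic members counted, dim ones included, both held in 15. Since each side of these comparisons is a single sample, no test was possible.

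In the S phase members as a list the differences within groups were smaller, with medians without sign of 0.19 in sham and 0.20 in BDL. Several S phase probes were brighter than all retained mitotic probes, and no set of features matched to S phase levels was taken. Sham 1 was above sham 2 in 8 of 12 with a median of 0.12, BDL 2 was above BDL 1 in 8 of 12 with a median of 0.13, and both held in 5. In the 2 G1 cyclins both orders held, against 26.6% of all features. There BDL 2 exceeded BDL 1 by 0.79 in Ccnd1 and 0.97 in Ccne1 on the log2 scale. Rrm2, Mcm5 and Tyms were the S phase members with the largest excess of BDL 2 over BDL 1, at 1.06, 0.92 and 0.68 on the log2 scale, close to or above the mitotic median, and in Gmnn the order was the opposite, with BDL 2 lower by 1.67. Expressed as the median deviation from each gene's own mean, the mitotic members stood at 0.18 and -0.26 in sham 1 and 2 and at -0.43 and 0.33 in BDL 1 and 2, while the S phase members stood at 0.04, -0.01, -0.08 and 0.06. The S phase median minus the mitotic median was therefore -0.15 and 0.25 in sham and 0.35 and -0.27 in BDL, and the groups overlapped. Between groups this contrast was -0.04, and with the dim members included it was 0.07.

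**Figure D3:**
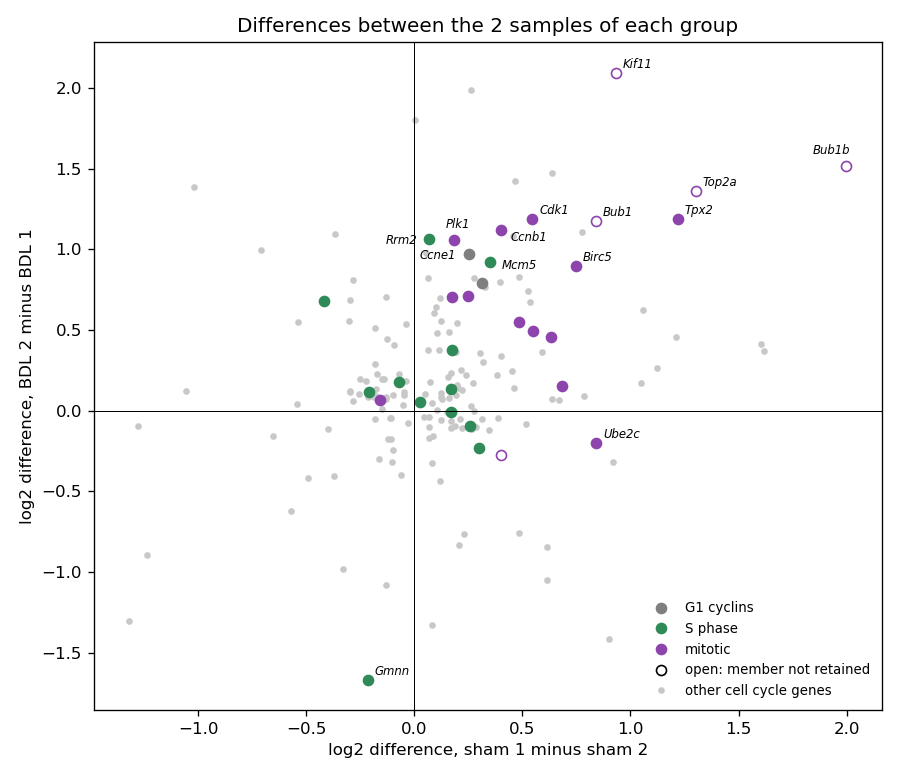
Log2 difference of sham 1 minus sham 2 (horizontal axis) against BDL 2 minus BDL 1 (vertical axis), with 1 point per gene for members (coloured by role, open where not retained) and for the other cell cycle genes (grey). Mitotic members lie mostly in the upper right, where both differences are above 0, most S phase members lie near the centre, Rrm2, Mcm5 and Tyms lie above it, and Gmnn lies at the bottom.

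Of the 8 members with several probes, 4 had a second retained probe. In these the order of the 2 samples within each group was the same by both probes, but the order of all 4 samples was not always the same. These were Birc5, Mki67, Tpx2 and Ube2c, and their second probes gave sham 1 minus sham 2 differences of 1.03, 0.76, 0.85 and 0.80 and BDL 2 minus BDL 1 differences of 1.04, 0.62, 1.16 and -0.55. Each of these 8 values has the sign of the first probe, but the second Tpx2 probe was not well above background on BDL 1, so its values there rest on background. Other probes of Ccnb1, Cdk1, Foxm1 and Ccne1 were well above background on 0 of 4 arrays, and in each of these genes at least 1 such probe gave the opposite order in 1 of the groups. For the difference between groups the second probe gave 0.06 for Mki67, 0.57 for Ube2c and -0.49 for Birc5, with the sign of the first probe, and -0.45 for Tpx2, against 0.09 by the first.

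Cell type markers differed between the same samples, in part in the same order. Over the macrophage and dendritic list, sham 1 was above sham 2 in 7 of 7 genes (median 1.43), and BDL 2 was above BDL 1 in 6 of 7 (median 0.21). For B and plasma cells both orders held in 4 of 6 genes, with median deviations of 0.69 and 0.44 in sham and -0.84 and -0.10 in BDL. For T and NK cells sham 1 was above sham 2 in 9 of 9 but BDL 2 above BDL 1 in 1 of 9. Sham 1 also stood apart in the interferon response list, above sham 2 in 11 of 11 (median 1.30) with BDL 2 above BDL 1 in 5 of 11, and in the loop and distal tubule list, where it was lower by a median of 0.62 and the 2 sham samples were at least 2-fold apart in 4 of 8 genes. Of the neutrophil genes, sham 1 was above sham 2 in 5 of 7 and BDL 2 above BDL 1 in 0 of 7. The erythroid genes went the other way in BDL, with BDL 2 above BDL 1 in 0 of 5 and median deviations of -0.76 and -0.77 in sham and 1.09 and 0.08 in BDL. The urothelial list had median deviations of -1.03 and 0.41 in sham and 3.11 and -2.71 in BDL. The part of these cell types in the mitotic pattern was not tested. The share of probes well above background was 57.7% and 62.1% in sham 1 and 2 and 59.1% and 63.1% in BDL 1 and 2. Within sham, the mitotic members were higher in sham 1, the sample with the lower share. Within BDL, they were lower in BDL 1, the sample with the lower share.

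Around the members, 173 other cell cycle genes were listed in 8 groups, of which 147 were retained. Of these 147, 0 passed limma's test after adjustment and 7 had an unadjusted p under 0.05, against 5.62% of all features. They were higher in BDL in 70 and lower in 77, with a median log2 difference of -0.01. The genes of origin licensing and firing (16 retained, median -0.01) and of the replication fork (29 retained, median 0.01) were as evenly placed as the S phase members. Named by their p-value, Cdc45, a part of the active helicase, was lower in BDL by 0.59 (SE 0.30) and Tk1, thymidine kinase, by 0.73 on the log2 scale. Dbf4, the activator of the CDC7 kinase, was lower by 0.76 (SE 0.58), and without sham 1 its difference was 0.042. Tk1 had levels of 2.00 and 2.10 in sham and 1.12 and 1.52 in BDL (SE 0.23). Pold2, a subunit of DNA polymerase delta, was higher by 0.45 (SE 0.21).

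The 29 retained genes of the spindle and kinetochore showed the order of the mitotic members in BDL: BDL 2 was above BDL 1 in 27 of 29, with a median of 0.48, and sham 1 was above sham 2 in 21 of 29, with a median of 0.12. BDL 2 was also above BDL 1 in 13 of 16 origin licensing and firing genes and 16 of 19 E2F, RB and DREAM genes. The median differences were 0.19 and 0.12, and the share over all features was 50.3%. The count was 15 of 29 for the replication fork, 10 of 19 for checkpoint and repair and 8 of 15 for condensin and chromatin. It was 6 of 13 for the other cyclins and kinases and 2 of 7 for the CDK inhibitors. For the spindle and kinetochore genes the median difference between groups was -0.07, with 11 higher and 18 lower in BDL, and without BDL 2 it was -0.44. The groups did not overlap in 11 of these 29 genes, 2 higher and 9 lower, against 36.6% of all features in either direction and 19.2% lower. By limma, 4 had an unadjusted p under 0.05, against 5.62% of all features. Without overlap were also 3 of 16 origin licensing and firing genes and 11 of 29 replication fork genes. Cenpe, the kinetochore motor CENP-E, had levels of 1.02 and 0.76 in sham and -0.49 and -0.46 in BDL. Its 2 BDL samples were nearly equal. Its log2 difference was -1.37 (SE 0.20), 2.59-fold lower, with a limma adjusted p of 0.574. Kif18a, a kinesin that shortens spindle microtubules, had levels of -4.21 and -4.73 in sham and -5.94 and -5.20 in BDL. Its probe was not well above background on BDL 1, so the log2 difference of -1.10 rests in part on a background value, and with normexp background correction it was -0.40. Chosen after its values were seen, Melk, a mitotic kinase, had -3.60 and -3.61 in sham and -6.44 and -4.64 in BDL, of which the value on BDL 1 was also not well above background.

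The CDK inhibitors, which hold the cyclin-dependent kinases in check, were the list with the largest median difference among the 8. Of 7 retained, 6 were higher in BDL, with a median log2 difference of 0.68 (0.32 with normexp), and 0 passed the adjusted test. Cdkn1c, p57, had levels of 2.73 and 2.52 in sham and 4.60 and 3.77 in BDL, a difference of 1.56 (SE 0.34), 2.94-fold, with a limma adjusted p of 0.759. Cdkn1a, p21, the inhibitor induced by p53, had -1.10 and -1.71 in sham and 0.21 and -0.84 in BDL, a difference of 1.09 (SE 0.44), 2.13-fold. In both genes the groups did not overlap and BDL 1, the sample lowest in the mitotic members, was the highest. The groups did not overlap in 3 of the 7, all higher in BDL, against 17.4% of all features in that direction and 36.6% in either. Across the list the median deviation was -0.24 and -0.44 in sham and 0.99 and 0.02 in BDL, and without BDL 1 the median difference was 0.13, without BDL 2 1.33. Without BDL 1 it was no longer the largest of the 8, since that of the other cyclins and kinases was 0.22. Cdkn1c is also known as a podocyte gene, and the podocyte markers were higher in BDL in 5 of 5, with a median of 0.58 and median deviations of -0.27 and -0.41 in sham and 0.32 and 0.23 in BDL. The part of podocytes in the Cdkn1c difference was not tested.

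**Figure D4:**
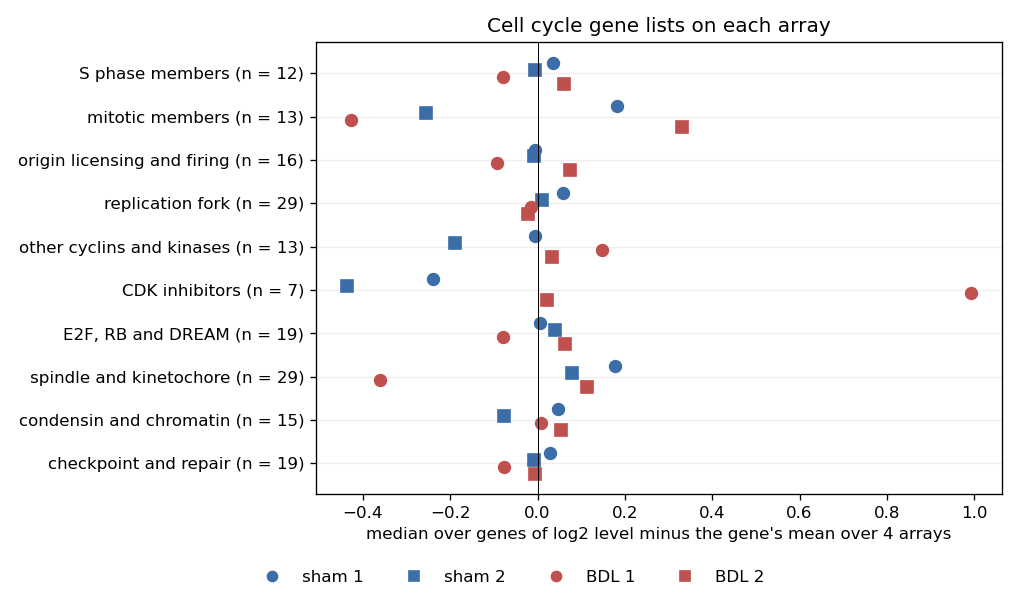
Median over the retained genes of each list of the log2 level minus the gene's mean over 4 arrays (horizontal axis), 1 row per list, with blue for sham, red for BDL, circles for replicate 1 and squares for replicate 2. BDL 1 stands at 0.99 for the CDK inhibitors and at -0.43 and -0.36 for the mitotic members and the spindle and kinetochore genes, and the replication lists lie close to 0 on all 4 arrays.

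The remaining lists had small medians. The groups did not overlap in 10 of 19 E2F, RB and DREAM genes (3 higher, 7 lower) and 6 of 13 other cyclins and kinases, all higher. They did not overlap in 6 of 15 condensin and chromatin genes and 6 of 19 checkpoint and repair genes. Over all features the share was 36.6% in either direction, 17.4% higher and 19.2% lower. The E2F, RB and DREAM genes had a median of -0.13 (19 retained, 7 higher, 12 lower), with Myc, the growth-promoting transcription factor, at -2.54 and -2.31 in sham and -1.79 and -1.61 in BDL (difference 0.72, SE 0.21) and E2f3, an activating E2F, lower by 0.60. The other cyclins and kinases had a median of 0.12 (13 retained, 10 higher), with Cdc25a, a phosphatase that activates CDK2, higher by 0.46 and Wee1, the kinase that restrains CDK1, higher by 0.48. The condensin and chromatin genes had a median of 0.00 (15 retained), with Tubb5, a beta tubulin, higher by 0.49 and Smc2, the condensin ATPase, lower by 0.29. The checkpoint and repair genes had a median of -0.12 (19 retained, 5 higher, 14 lower), with the stress gene Gadd45b higher by 0.46 and the antiproliferative gene Tob1 by 0.34. None of these 8 genes passed limma's adjusted test.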

How the data were processed

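Total RNA from 4 mouse kidney samples (2 sham, 2 BDL) was labelled with Cy3 and hybridised to 1-colour arrays. Per the submitters' processing notes, the authors used Agilent Feature Extraction 11.0.1.1, and the deposited files give processed signal as a background-subtracted intensity, with the flags (other) for saturation, outliers and signal above background, per the file headers. The authors' deposited value table holds the same intensity divided by 1 constant per array.

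Replicate spots were averaged (55668 probes), log2 was taken and the 75th percentile of each array was subtracted. A probe was retained when each array of sham, of BDL or of both groups gave a signal well above background (32280 probes). Probes were named through their RefSeq accession (27223 named). The brightest retained probe stood for a gene, giving 24043 features. Groups were compared with limma 3.58.1 (lmFit, eBayes, two-sided, Benjamini-Hochberg) in R 4.3.3, and the code was tested on simulated data. The 32 members and the gene lists were chosen with earlier results of these data known. Besides members, the 2 genes of smallest p per pathway or marker list were named. Alternatives were normexp (offset 50, on the spot median signal), quantile or median scaling, the authors' table, other filters on dim probes, averaged probes, array weights, a replicate block and leaving out each sample. The 4 arrays share 1 slide and 1 scan, so no batch term could be fitted, and 4 arrays limit the precision.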

Additional observations from a re-analysis of the deposited data

How the results depend on the processing

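Under every alternative run, 0 members passed limma's adjusted test (the smallest member adjusted p ran from 0.456 to 0.964). Leaving out 1 sample at a time, the median difference ran from -0.16 to 0.36 over all members, -0.13 to 0.13 over S phase and -0.33 to 0.43 over mitotic members, and the sign turned in 16 members: Mcm2 (-0.19 to 0.017), Mcm4 (-0.073 to 0.10), Mcm5 (-0.39 to 0.53), Mcm7 (-0.050 to 0.21), Rrm2 (-0.58 to 0.48), Tyms (-0.11 to 0.57), Ccnd1 (-0.24 to 0.55), Mki67 (-0.18 to 0.45), Ccna2 (-0.077 to 0.61), Ccnb1 (-0.49 to 0.64), Ccnb2 (-0.088 to 0.46), Cdk1 (-0.30 to 0.89), Plk1 (-0.61 to 0.45), Birc5 (-0.68 to 0.21), Foxm1 (-0.33 to 0.38) and Tpx2 (-0.52 to 0.69). Dbf4 ran from -1.56 to 0.042. Of 241 other member values 2 turned sign: Rrm2 with normexp (0.0022) and Tpx2 with its probes averaged (-0.18). The excess of sham 1 over sham 2 in S phase members was 0.034 with normexp and 0.21 with median scaling. In mitotic members it was 0.51 with normexp to 0.68 with the authors' table, and that of BDL 2 over BDL 1 was 0.39 to 1.06 with the same 2. Both upper ends rest on a different set of genes and not on a different scale. The authors' table gave 15 mitotic members against 13, without Ccnb2 and Cdc20, with dim members not retained here and with another Birc5 probe. The CDK inhibitor median was 0.32 with normexp. The series' treatment protocol speaks of RNA pairs, and whether replicate numbers pair a sham with a BDL sample is unclear. The replicate differences in sham and BDL had r = 0.06 across 24043 features, which cannot settle a pairing by design. With the replicate number as a block, 0 members passed (smallest adjusted p 0.814). The checks on the order of samples within groups and on the pathway lists and genes were chosen after seeing the data. Dim mitotic probes near background limit the levels of Top2a, Bub1, Bub1b, Kif11 and Aurkb.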
